A study of Mus musculus with 70 samples.

Results

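The 43 genes described here are interferon-response and antigen presentation genes. They were chosen by name with earlier results of these data known, among them the T3 rise of Gbp3. All 43 were found among the 22835 genes of a pituitary RNA-seq table. A total of 42 members had more than 1 CPM (a gene's reads scaled to the total of the library) in each of the 18 libraries and were tested. The remaining member, Mx1, ranged from 0.365 to 4.27 CPM and was not tested. The libraries were made from pools of 3 whole pituitaries of adult male mice of the C57BL/6J strain. The 4 groups were hypothyroid wild type (4 libraries), hyperthyroid wild type (4), hypothyroid Thrb-KO (5) and hyperthyroid Thrb-KO (5). All groups received methimazole (MMI) with perchlorate, which block synthesis of thyroid hormone, and hyperthyroid groups also received T3, the active hormone, for the final week. Thrb-KO mice lack TRβ, the thyroid hormone receptor encoded by Thrb, throughout life, and the hormone treatments were given to adults. Locations of the genes were also compared with 3 lists of chromatin peaks, described below.

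Interferons are secreted signals of infection. Type I interferons act through the kinases Jak1 and Tyk2 and lead to binding of a complex that holds Stat2 and Irf9 at the interferon-stimulated response element (ISRE), whereas interferon gamma acts through Jak1 and Jak2 and leads to binding at the gamma-activated site (GAS). Induced genes include guanylate-binding proteins and immunity-related GTPases, which act on intracellular pathogens, antiviral effectors such as the Ifit proteins, and the machinery that cuts proteins and displays the peptides on class I molecules. Most cell types carry this response at a low basal level, and class II presentation, which depends on the regulator Ciita and the invariant chain Cd74, is largely a property of macrophages and other presenting cells. The pituitary endocrine cells that make growth hormone, prolactin and thyrotropin are themselves targets of T3.

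The libraries held 21453548 to 55273749 reads. Pituitary endocrine markers were abundant in all groups, with a summed level of the 10 listed between 69669 and 224350 CPM. Reads assigned to Thrb were not called different between hypothyroid Thrb-KO and wild type (239 to 295 against 239 to 297 CPM; log2 fold change 0.08 ± 0.13 SE, adjusted p = 0.82). In hyperthyroid samples Thrb reads were higher in Thrb-KO, with means of 260.2 CPM against 104.1 CPM in wild type (log2 fold change 1.335 ± 0.13 SE, limma adjusted p = 1.4e-06). They fell with T3 in wild type (log2 fold change -1.32 ± 0.14 SE) and were not called with T3 in Thrb-KO. Reads were assigned to whole transcripts, so the Thrb level does not check the loss of the protein. Lars2 divided the libraries into 2 sets that the labels do not name, with 2571 to 3420 CPM in replicates 1 and 2 of every group and 53.2 to 95.1 CPM in the other replicates. Values are therefore also given within these sets. In whole tissue, fewer cells of a type and less RNA per cell cannot be told apart.

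T3 raised a large share of the members in wild-type pituitary. Calls required both a limma adjusted p under 0.05 and a fold change of 1.5 or more in either direction. In wild type, 18 of 42 members were called higher in hyperthyroid than in hypothyroid samples and 0 lower, where 3.87% of all 13145 genes tested were called higher and 5.59% lower. With CPM rescaled by the trimmed mean of M values (TMM), 25 members were called higher, and the shares of all genes were 5.14% higher and 4.09% lower. On the recovered reads, edgeR called 25 members higher (5.34% of all genes) and DESeq2 27 (5.75%). By adjusted p alone, 23 members were higher (6.89% of all genes) and 1, Irf8, lower (12.4%). The called members were Gbp2, Gbp3, Gbp4, Gbp5, Gbp6, Gbp7, Gbp9, Irgm2, Iigp1, Irf1, Ifit3, Ifi35, Isg15, Rsad2, Oasl2, Mx2, Psmb8 and Psmb10. The median log2 fold change was 0.58 over the 42 members and -0.04 over all genes tested. All libraries of the hyperthyroid group lay above all of the hypothyroid group for 18 members (5.66% of all genes) and below for 1 member (11.7% of all genes). Gbp3 had the largest change of the 42, and changes of the other called members other than Gbp9 and Gbp2 were between 0.59 and 1.00 on the log2 scale.

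In Thrb-KO pituitary, 1 of 42 members, Gbp3, was called higher with T3 and 0 lower, where 0.411% of all genes were called higher and 0.601% lower. Hyperthyroid libraries lay above all hypothyroid ones for 3 members, Gbp3, Ifih1 and Psmb10 (2.05% of all genes), and below for 0 (3.53%). The median log2 fold change of the members was 0.08 in Thrb-KO. The T3 response differed between genotypes, being smaller in Thrb-KO, for 5 of 42 members (Gbp2, Gbp3, Gbp7, Gbp9 and Mx2), where this interaction was called in that direction for 1.78% of all genes. With the replicate number as a block it was called for 8 (2.54% of all genes), with edgeR for 8 (2.45%) and with DESeq2 for 13 (2.92%). It was called in the opposite direction for 0 members and 2.48% of all genes. For the other 13 members called in wild type, the difference between genotypes did not pass the test, and a response in wild type alone does not show that it differed.

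**Figure D1:**
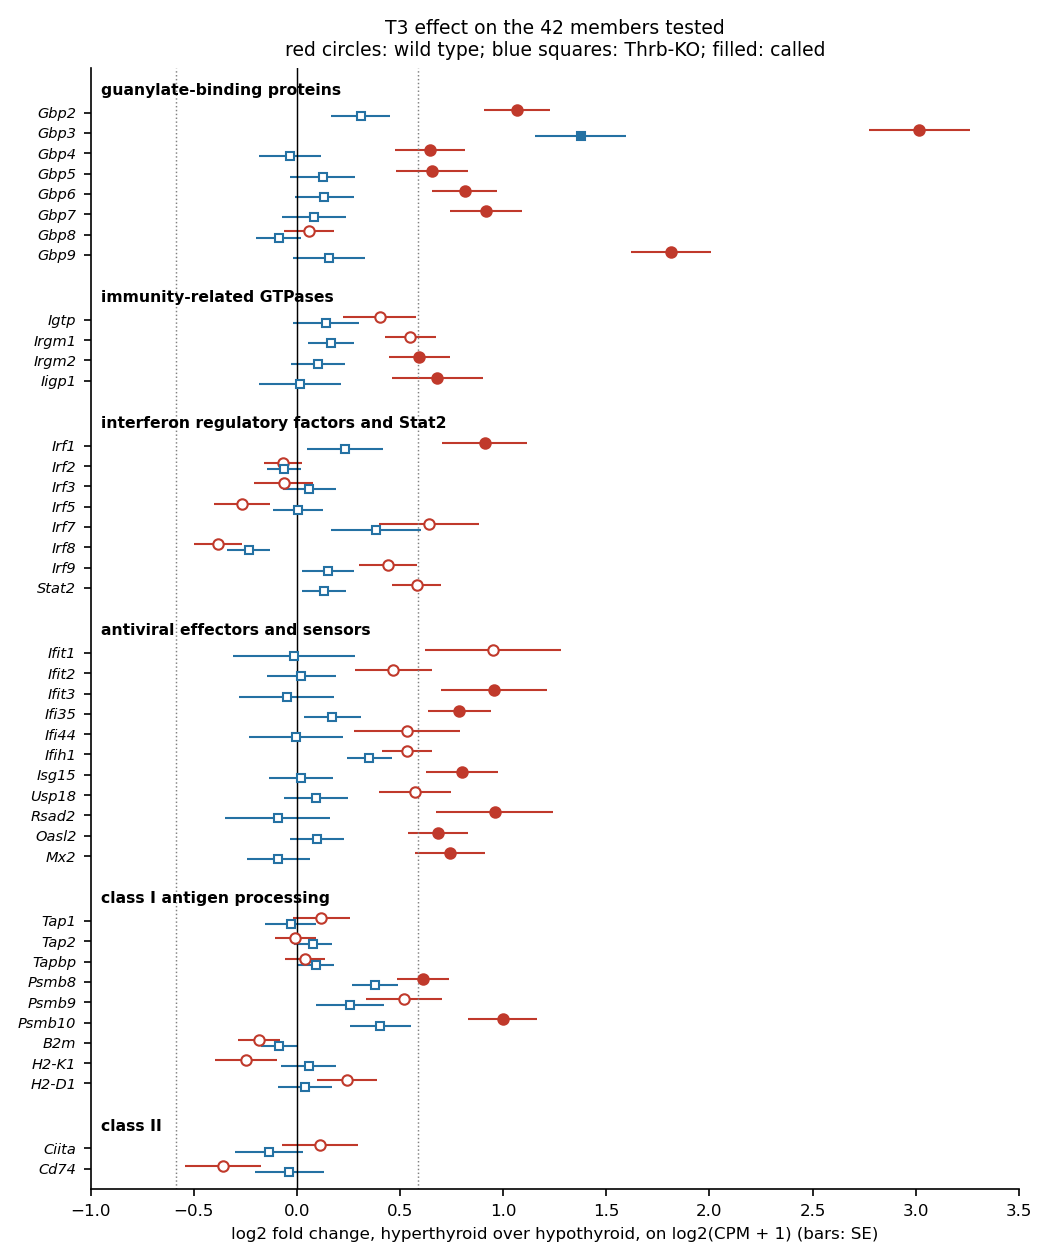
Log2 fold change with T3 (horizontal axis, on log2(CPM + 1), bars: SE) for each of the 42 members tested, in wild type (red circles) and Thrb-KO (blue squares), grouped by role. Filled symbols were called, 18 in wild type and 1 in Thrb-KO. Dotted lines mark 1.5-fold changes.

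These counts depended on single libraries. Hyperthyroid wild type replicate 4 was the highest of its group for 31 of the 42 members, against 28.5% of all genes, and exceeded the rest of the group by a median of 0.51 on the log2 scale over the members and 0.05 over all genes. Replicate 3 of the same group was the lowest for 23 members, but also for 57.9% of all genes. Without replicate 4, 11 members were called higher with T3 in wild type (3.61% of all genes), all of them among the 18, and the interaction was called for 2 members, Gbp3 and Gbp9 (1.55%). Without replicate 3, 23 members were called (4.94% of all genes) and the interaction for 13 (2.84%). Without both, an alternative added after the data were seen, the counts were 15 and 8, and shares of all genes were not counted. In replicate 4 the summed CPM of 10 macrophage markers was 179, the highest of the 18 libraries, against 104 to 141 in the others of its group and 143 to 168 in hypothyroid wild type. The summed CPM of 12 leukocyte markers was 23.1 there, also the highest of the 18, and between 15.3 and 19.2 in the others of its group. The part of macrophages and leukocytes in the result was not tested. Among Thrb-KO samples, hypothyroid replicate 4 was the highest of 5 for 21 members (19.8% of all genes), with a median excess of 0.15 over the members. There the summed macrophage markers were 82.8 CPM, in a group that ranged from 81.6 to 97.8 CPM. Summed leukocyte markers were 13.4 CPM, in a group that ranged from 12.2 to 15.4 CPM. The part of these cells was not tested here either.

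**Figure D2:**
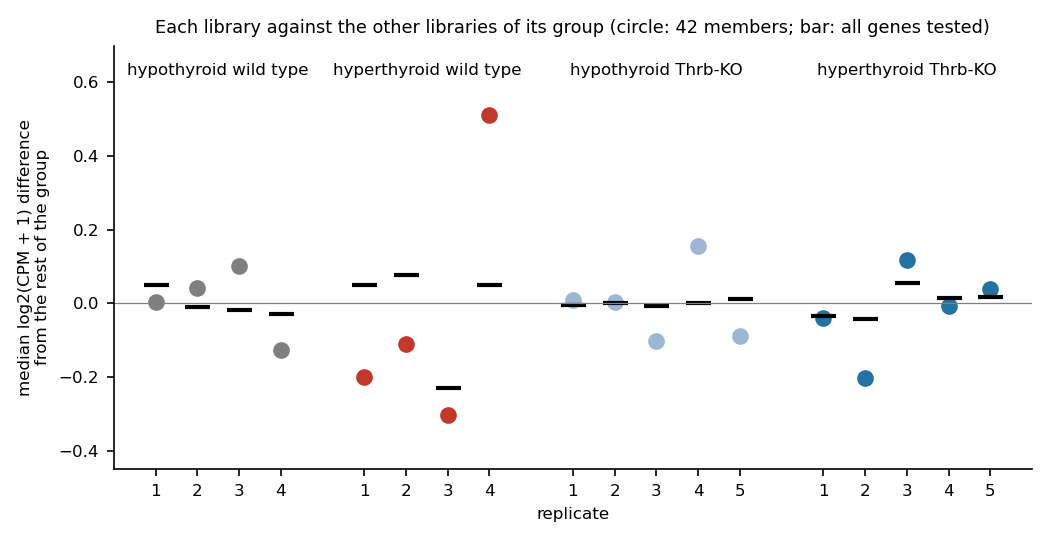
Median difference, on log2(CPM + 1), between each library and the mean of the other libraries of its group, over the 42 members (circles) and over all 13145 genes tested (bars). Hyperthyroid wild type replicate 4 stands 0.51 above its group over the members and 0.05 over all genes.

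The wild-type rise was present in both library sets. With replicates 1 and 2 alone, 16 members were called higher with T3 (4.24% of all genes), and with the later replicates alone, 16 (4.2%). In each set, 13 of the 16 were among the 18 called in all libraries. The interaction was called for 10 members in replicates 1 and 2 (3.15% of all genes were lower) and for 3 in the later replicates (1.34%).

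**Figure D3:**
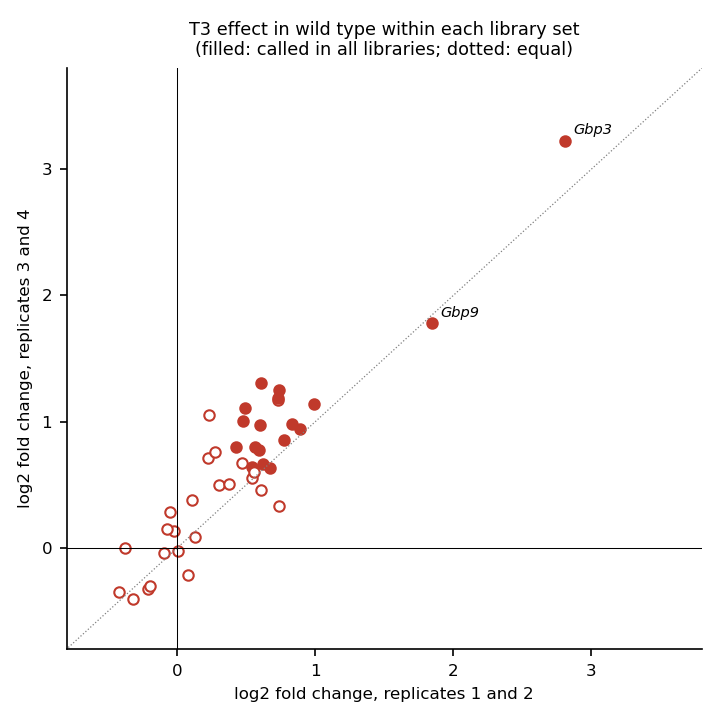
Log2 fold change with T3 in wild type for the 42 members, in replicates 1 and 2 (horizontal axis) and in replicates 3 and 4 (vertical axis). Filled points are the 18 members called in all libraries. Gbp3 and Gbp9 lie apart at the upper right and all 18 filled points lie above 0 on both axes.

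Guanylate-binding proteins, large GTPases that assemble on the membranes of vacuoles holding pathogens, included the largest changes. Of the 8 tested, 7 were called higher with T3 in wild type and Gbp3 also in Thrb-KO. Gbp3, in order of replicate, was at 7.13, 10.4, 10.3 and 8.66 CPM in hypothyroid wild type and 57.3, 77.3, 67.03 and 139 CPM in hyperthyroid wild type. In Thrb-KO it was at 9.94, 11.3, 12.9, 18.5 and 8.44 CPM in hypothyroid and 25.8, 25.3, 38.5, 37.7 and 36.5 CPM in hyperthyroid samples. Neither genotype had an overlap between its hypothyroid and hyperthyroid libraries, and every hyperthyroid Thrb-KO library lay below every hyperthyroid wild-type library. Group means (± SD) were 9.12 ± 1.54 and 85.2 ± 36.9 CPM in wild type (n = 4 each) and 12.2 ± 3.90 and 32.8 ± 6.64 CPM in Thrb-KO (n = 5 each). The rise was 8.10-fold in wild type (log2 fold change 3.02 ± 0.25 SE, adjusted p = 5.05e-08) and 2.60-fold in Thrb-KO (log2 fold change 1.38 ± 0.22 SE, adjusted p = 0.0011), on the CPM + 1 scale. The T3 response was thus blunted but not lost in Thrb-KO (difference of the log2 changes -1.64 ± 0.33 SE, adjusted p = 0.0049), and it was called in both genotypes under each of 31 alternative settings.

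Gbp9 rose with T3 in wild type and was not called in Thrb-KO. Its values were 15.7, 17.96, 12.3 and 12.00 CPM in hypothyroid and 53.6, 73.9, 31.95 and 61.2 CPM in hyperthyroid wild type, without overlap (log2 fold change 1.81 ± 0.19 SE, adjusted p = 1.52e-06). In Thrb-KO they were 18.6, 19.96, 15.6, 16.3 and 15.5 CPM in hypothyroid and 20.3, 22.6, 17.3, 20.7 and 15.7 CPM in hyperthyroid samples, which overlapped (log2 fold change 0.15 ± 0.17 SE, adjusted p = 1). The interaction for Gbp9, -1.66 ± 0.26 SE (adjusted p = 0.00057), was the largest of the members and was called under each of 30 alternatives. Gbp9 thus differed from Gbp3 in that the response in Thrb-KO was within the spread of the libraries.

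Gbp2 and Gbp7 also responded less in Thrb-KO. Gbp2 was at 9.10, 11.02, 11.1 and 9.43 CPM in hypothyroid and 17.3, 25.2, 16.9 and 33.2 CPM in hyperthyroid wild type (log2 fold change 1.07 ± 0.16 SE, adjusted p = 7.48e-05). In Thrb-KO it was at 11.5, 12.5, 11.7, 14.6 and 12.1 CPM in hypothyroid and 16.3, 13.2, 16.6, 16.5 and 15.8 CPM in hyperthyroid samples (log2 fold change 0.31 ± 0.14 SE, adjusted p = 0.57). The wild-type groups of Gbp2 did not overlap, while the highest hypothyroid Thrb-KO library exceeded the lowest hyperthyroid one. Gbp7 was at 36.9, 44.7, 29.1 and 28.1 CPM in hypothyroid and 71.7, 80.5, 41.8 and 74.9 CPM in hyperthyroid wild type, where hyperthyroid replicate 3 fell within the hypothyroid range (log2 fold change 0.92 ± 0.17 SE, adjusted p = 0.00074), and at 46.9, 47.6, 43.8, 42.8 and 38.2 CPM in hypothyroid and 50.4, 50.5, 43.3, 48.7 and 39.9 CPM in hyperthyroid Thrb-KO. The interactions of Gbp2 (-0.76 ± 0.21 SE, adjusted p = 0.046) and Gbp7 (-0.83 ± 0.23 SE, adjusted p = 0.043) were close to the threshold and were lost under 18 and 16 of 30 alternatives, respectively, most of them fits that left out 1 library.

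Gbp4, Gbp5 and Gbp6 made smaller rises in wild type. Gbp6 was at 4.22, 6.06, 5.33 and 4.57 CPM in hypothyroid and 8.19, 10.7, 6.57 and 14.2 CPM in hyperthyroid wild type, with no overlap (log2 fold change 0.81 ± 0.16 SE, adjusted p = 0.00099). Its interaction, -0.68 ± 0.21 SE, passed with the replicate number as a block (limma adjusted p = 0.045) and not without (adjusted p = 0.077). It was at 7.18, 6.38, 7.22, 7.76 and 5.95 CPM in hypothyroid and 7.42, 7.21, 8.22, 7.82 and 7.50 CPM in hyperthyroid Thrb-KO. Gbp4 was at 5.28, 5.51, 4.59 and 4.35 CPM in hypothyroid and 7.54, 10.4, 5.23 and 11.05 CPM in hyperthyroid wild type (log2 fold change 0.64 ± 0.17 SE, adjusted p = 0.01), and at 5.60, 5.14, 5.32, 7.82 and 5.31 CPM in hypothyroid and 6.74, 5.43, 5.65, 4.92 and 5.45 CPM in hyperthyroid Thrb-KO. Gbp5 was at 5.68, 6.94, 6.06 and 4.31 CPM in hypothyroid and 9.40, 12.01, 5.88 and 12.2 CPM in hyperthyroid wild type (log2 fold change 0.66 ± 0.17 SE, adjusted p = 0.011), and at 5.95, 5.73, 4.36, 5.03 and 4.12 CPM in hypothyroid and 6.52, 5.23, 5.10, 5.39 and 5.50 CPM in hyperthyroid Thrb-KO. For Gbp4 and Gbp5, hyperthyroid replicate 3 overlapped the hypothyroid group, and the call was lost without replicate 4. Under all 31 alternatives, the call of Gbp4 was lost in 4 and that of Gbp5 in 5. Gbp8, the only member of the family not called, ranged from 3.21 to 4.11 CPM (hypothyroid) and from 3.35 to 4.61 CPM (hyperthyroid) in wild type (log2 fold change 0.06 ± 0.12 SE, adjusted p = 0.84). The family has near-identical copies in the genome, so that assignment of 50 base reads between its members is uncertain.

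**Figure D4:**
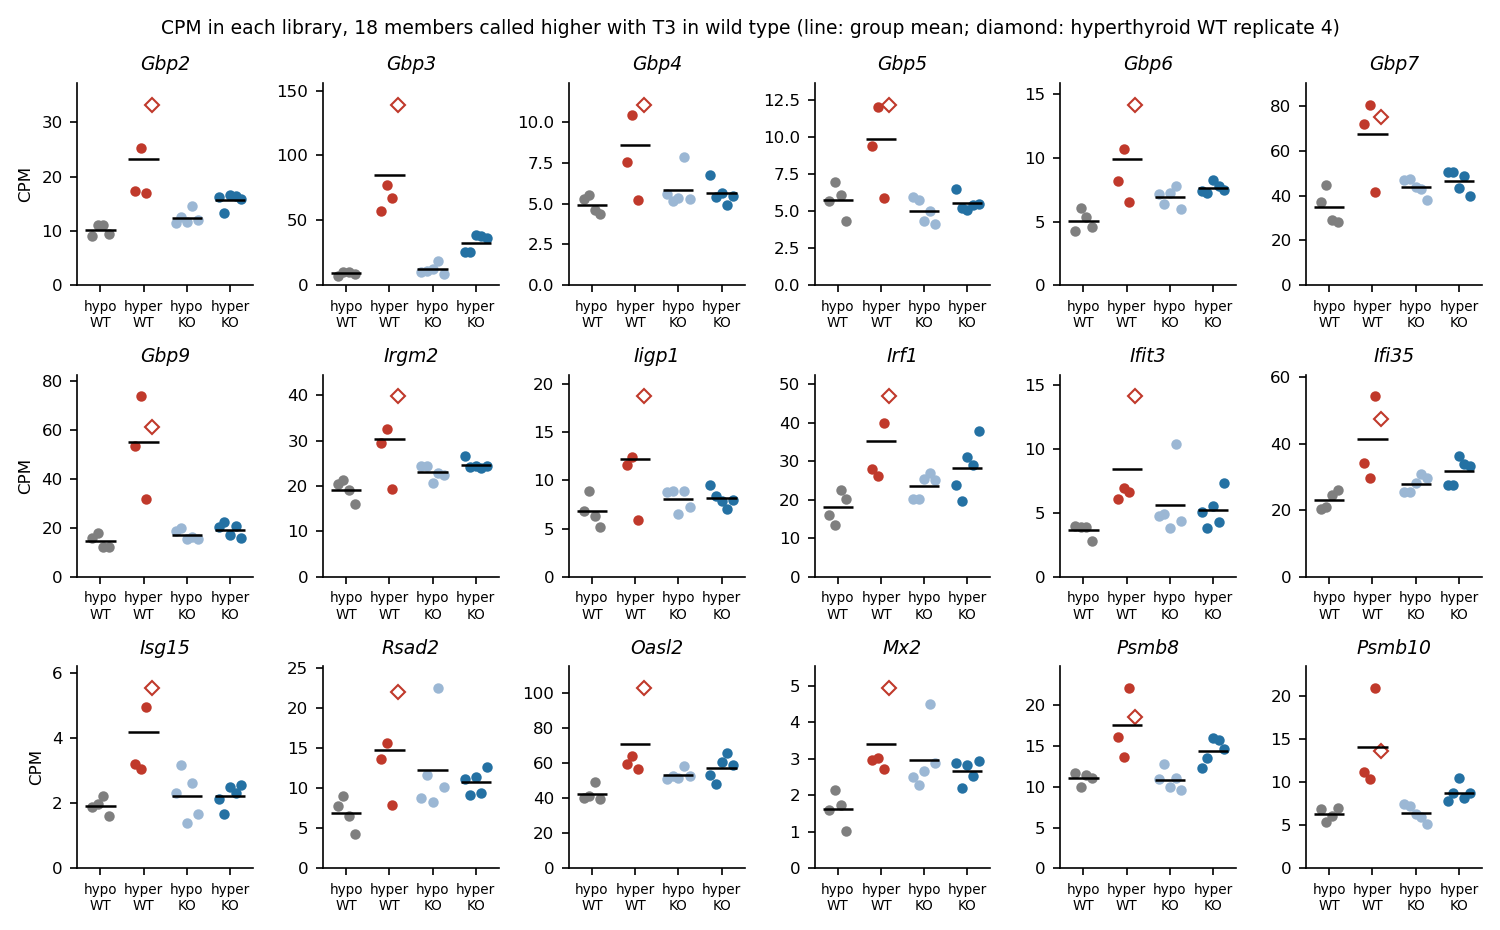
CPM in each library (vertical axes from 0) of the 18 members called higher with T3 in wild type, in hypothyroid and hyperthyroid wild type (WT, 4 libraries each) and Thrb-KO (KO, 5 each), with group means as lines. The open diamond is hyperthyroid wild type replicate 4, the highest of its group for most of the members shown, and Gbp3 has the largest rise in both genotypes.

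Immunity-related GTPases, which act on vacuoles of intracellular parasites and bacteria, were called higher with T3 in wild type for 2 of 4 members and in Thrb-KO for 0 of 4. Irgm2 was at 20.4, 21.3, 19.1 and 16.02 CPM in hypothyroid and 29.4, 32.5, 19.4 and 39.8 CPM in hyperthyroid wild type (log2 fold change 0.59 ± 0.15 SE, adjusted p = 0.0072). Iigp1 was at 6.88, 8.86, 6.29 and 5.18 CPM in hypothyroid and 11.6, 12.4, 5.92 and 18.7 CPM in hyperthyroid wild type (log2 fold change 0.68 ± 0.22 SE, adjusted p = 0.037). In both genes hyperthyroid replicate 3 lay within the hypothyroid range, and the call was lost without replicate 4. Under all 31 alternatives, the call of Irgm2 was lost in 6 and that of Iigp1 in 10. Irgm2 was at 24.4, 24.5, 20.7, 22.9 and 22.3 CPM in hypothyroid and 26.6, 24.3, 24.3, 23.9 and 24.3 CPM in hyperthyroid Thrb-KO, and Iigp1 at 8.82, 8.93, 6.49, 8.94 and 7.26 CPM in hypothyroid and 9.56, 8.38, 7.82, 7.06 and 7.97 CPM in hyperthyroid Thrb-KO, with overlap in both. Irgm1, a regulator of the other GTPases, separated the wild-type groups, with 20.9, 19.8, 26.1 and 25.02 CPM against 29.1, 30.97, 34.1 and 42.5 CPM, but its change was below 1.5-fold (log2 fold change 0.55 ± 0.12 SE, adjusted p = 0.0036). Irgm1 was at 24.8, 23.6, 25.96, 30.6 and 26.1 CPM in hypothyroid and 27.4, 24.7, 31.6, 32.4 and 31.5 CPM in hyperthyroid Thrb-KO, which overlapped. Igtp was not called (log2 fold change 0.40 ± 0.18 SE, adjusted p = 0.14).

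Of the interferon regulatory factors and Stat2, which carry the signal to the genes, 1 of 8, Irf1, was called higher with T3 in wild type and 0 of 8 in Thrb-KO. Irf1, a transcription factor induced by interferon gamma, was at 16.1, 13.4, 22.6 and 20.2 CPM in hypothyroid and 27.96, 26.05, 39.98 and 46.9 CPM in hyperthyroid wild type, without overlap (log2 fold change 0.91 ± 0.21 SE, adjusted p = 0.0034). Thrb-KO values of Irf1 were 20.2, 20.2, 25.3, 26.9 and 25.1 CPM in hypothyroid and 23.9, 19.7, 31.1, 28.98 and 37.9 CPM in hyperthyroid samples, with overlap (log2 fold change 0.23 ± 0.18 SE, adjusted p = 1). The interaction for Irf1 did not pass the test (-0.68 ± 0.28 SE, adjusted p = 0.22), although it did with the replicate number as a block (adjusted p = 0.0027).

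Stat2 and Irf9, which act in the type I complex, were not called. Stat2 was at 24.4, 23.3, 23.6 and 20.2 CPM in hypothyroid and 36.01, 35.1, 25.99 and 43.2 CPM in hyperthyroid wild type (log2 fold change 0.58 ± 0.12 SE, adjusted p = 0.0016), just below the 1.5-fold limit. Irf9 was at 21.6, 22.4, 26.03 and 25.2 CPM in hypothyroid and 28.5, 29.1, 28.3 and 47.9 CPM in hyperthyroid wild type (log2 fold change 0.44 ± 0.14 SE, adjusted p = 0.033). The wild-type groups of both were separate, and replicate 4 of Irf9 was far above the other 3 hyperthyroid libraries. Irf7, the factor that amplifies type I interferon production, was at 4.31, 4.20, 4.02 and 3.55 CPM in hypothyroid and 4.93, 5.39, 5.47 and 14.2 CPM in hyperthyroid wild type (log2 fold change 0.64 ± 0.24 SE, adjusted p = 0.078), and the value in replicate 4 was far from the other 3. With the replicate number as a block, Irf7 was called higher (limma adjusted p = 0.039). Irf8, a factor of macrophages and other myeloid cells, was the one member with every hyperthyroid wild-type library below the hypothyroid ones, 5.45, 4.98, 5.46 and 5.44 CPM against 3.76, 3.54, 3.32 and 4.92 CPM (log2 fold change -0.38 ± 0.12 SE, adjusted p = 0.025), and the change was under 1.5-fold. In Thrb-KO the groups of all 4 overlapped. Stat2 was at 30.3, 31.6, 26.6, 28.1 and 25.8 CPM in hypothyroid and 34.1, 30.7, 32.1, 27.8 and 31.4 CPM in hyperthyroid Thrb-KO, and Irf9 at 24.2, 25.6, 27.6, 27.9 and 24.7 CPM in hypothyroid and 27.1, 24.3, 34.1, 30.8 and 28.9 CPM in hyperthyroid Thrb-KO. Irf7 was at 3.21, 3.63, 3.87, 5.62 and 3.10 CPM in hypothyroid and 4.51, 3.65, 6.93, 5.20 and 6.67 CPM in hyperthyroid Thrb-KO, and Irf8 at 4.85, 5.43, 3.91, 3.62 and 4.76 CPM in hypothyroid and 3.53, 3.42, 4.43, 3.56 and 3.40 CPM in hyperthyroid Thrb-KO. Irf2, Irf3 and Irf5 had log2 fold changes between -0.27 and -0.07 in wild type and none was called.

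Antiviral effectors and sensors had 6 of 11 tested members called higher with T3 in wild type, 0 of 11 in Thrb-KO, and all 11 had a positive log2 fold change in wild type, between 0.47 and 0.96. Ifi35, an interferon-induced leucine zipper protein, was at 20.5, 20.9, 24.6 and 25.99 CPM in hypothyroid and 34.2, 29.6, 54.3 and 47.4 CPM in hyperthyroid wild type, without overlap (log2 fold change 0.79 ± 0.15 SE, adjusted p = 0.00098). Thrb-KO values of Ifi35 were 25.5, 25.4, 28.1, 31.03 and 29.7 CPM in hypothyroid and 27.5, 27.7, 36.2, 33.8 and 33.2 CPM in hyperthyroid samples, with overlap (log2 fold change 0.17 ± 0.14 SE, adjusted p = 1). The interaction for Ifi35, -0.62 ± 0.21 SE, passed with the replicate number as a block (limma adjusted p = 0.0037) and not without (adjusted p = 0.1). Isg15, a ubiquitin-like modifier, was at 1.88, 1.98, 2.23 and 1.60 CPM in hypothyroid and 3.19, 3.05, 4.95 and 5.55 CPM in hyperthyroid wild type (log2 fold change 0.80 ± 0.18 SE, adjusted p = 0.0027), and at 2.32, 3.17, 1.39, 2.63 and 1.66 CPM in hypothyroid and 2.12, 1.67, 2.50, 2.30 and 2.56 CPM in hyperthyroid Thrb-KO. Every hyperthyroid wild-type library of Isg15 exceeded both the hypothyroid wild-type and the hyperthyroid Thrb-KO libraries.

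Oasl2 and Mx2 were called higher with T3 in wild type, and the call of Oasl2 was lost without hyperthyroid wild type replicate 4. Oasl2, a relative of the oligoadenylate synthetases, was at 40.2, 41.2, 49.2 and 39.8 CPM in hypothyroid and 59.6, 64.1, 56.6 and 103 CPM in hyperthyroid wild type (log2 fold change 0.68 ± 0.15 SE, adjusted p = 0.0022), and at 50.7, 52.4, 51.7, 58.4 and 52.5 CPM in hypothyroid and 53.1, 48.04, 60.7, 65.7 and 58.6 CPM in hyperthyroid Thrb-KO. Mx2, a dynamin-like antiviral GTPase, was at 1.60, 2.16, 1.72 and 1.02 CPM in hypothyroid and 2.97, 3.02, 2.72 and 4.95 CPM in hyperthyroid wild type (log2 fold change 0.74 ± 0.17 SE, adjusted p = 0.0039). In Thrb-KO it was at 2.49, 2.29, 2.68, 4.50 and 2.88 CPM in hypothyroid and 2.88, 2.20, 2.84, 2.52 and 2.94 CPM in hyperthyroid samples (log2 fold change -0.09 ± 0.15 SE, adjusted p = 1). The groups of wild type did not overlap for either gene, and the interaction was called for Mx2 (-0.83 ± 0.23 SE, adjusted p = 0.039) and lost under 16 of 30 alternatives, including those without hyperthyroid wild type replicate 4 and without hypothyroid Thrb-KO replicate 4. Hypothyroid Thrb-KO libraries of Mx2 were also higher than hypothyroid wild-type ones (log2 fold change 0.59 ± 0.16 SE, adjusted p = 0.033), a call that was lost with the replicate number as a block (log2 fold change 0.58) and under 10 of 31 alternatives in all.

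Ifit3 and Rsad2 were called higher with T3 in wild type. The call of Ifit3 was lost under 1 of 31 alternatives, without both hyperthyroid replicates 3 and 4, and that of Rsad2 under 5, among them those without hypothyroid replicate 4, without hyperthyroid replicate 2 and without hyperthyroid replicate 4 of wild type. Ifit3, which binds with Ifit1 to foreign RNA, was at 3.97, 3.91, 3.93 and 2.83 CPM in hypothyroid and 6.07, 6.98, 6.61 and 14.1 CPM in hyperthyroid wild type (log2 fold change 0.96 ± 0.26 SE, adjusted p = 0.012). In Thrb-KO it was at 4.78, 4.88, 3.82, 10.4 and 4.38 CPM in hypothyroid and 5.11, 3.79, 5.50, 4.29 and 7.36 CPM in hyperthyroid samples. Its wild-type groups were separate, with replicate 4 well above the other hyperthyroid libraries, and hypothyroid Thrb-KO replicate 4 also stood well above its group. Rsad2, the antiviral enzyme viperin, was at 7.76, 9.07, 6.50 and 4.24 CPM in hypothyroid and 13.6, 15.6, 7.91 and 21.9 CPM in hyperthyroid wild type (log2 fold change 0.96 ± 0.28 SE, adjusted p = 0.022), and at 8.82, 11.7, 8.21, 22.5 and 10.1 CPM in hypothyroid and 11.1, 9.16, 11.3, 9.43 and 12.6 CPM in hyperthyroid Thrb-KO. Hyperthyroid wild type replicate 3 of Rsad2 lay within the hypothyroid range. Ifit1 was at 5.88, 9.47, 7.71 and 6.16 CPM in hypothyroid and 11.9, 14.3, 9.81 and 28.4 CPM in hyperthyroid wild type, separate groups that did not pass the test (log2 fold change 0.95 ± 0.33 SE, adjusted p = 0.052) except with the replicate number as a block (adjusted p = 0.018), and it was at 9.16, 8.87, 9.41, 29.7 and 8.63 CPM in hypothyroid and 11.7, 8.13, 12.4, 12.6 and 12.9 CPM in hyperthyroid Thrb-KO, where hypothyroid replicate 4 was far above its group.

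Usp18, a protease that removes Isg15 and restrains interferon signalling, was at 4.68, 4.63, 5.79 and 4.50 CPM in hypothyroid and 6.73, 6.95, 6.08 and 12.4 CPM in hyperthyroid wild type, separate groups with a change below 1.5-fold (log2 fold change 0.57 ± 0.17 SE, adjusted p = 0.025). Usp18 was at 4.89, 5.50, 5.12, 8.05 and 5.53 CPM in hypothyroid and 6.00, 5.20, 7.20, 5.77 and 6.85 CPM in hyperthyroid Thrb-KO, which overlapped. Ifih1, the cytoplasmic RNA sensor MDA5, was likewise below the fold limit (log2 fold change 0.53 ± 0.12 SE, adjusted p = 0.0036). In Thrb-KO Ifih1 was at 27.03 to 33.03 CPM in hypothyroid and 36.5 to 40.4 CPM in hyperthyroid samples, which did not overlap, and it did not pass the test there (log2 fold change 0.35 ± 0.11 SE, adjusted p = 0.15). Ifit2 and Ifi44 were not called in any comparison. Mx1 had 0.855, 1.04, 0.365 and 2.54 CPM in hyperthyroid wild type and 0.444, 0.556, 0.76, 4.27 and 0.64 CPM in hypothyroid Thrb-KO, with replicate 4 the highest of both groups.

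Of 9 members of class I antigen processing, 2 were called higher with T3 in wild type and 0 of 9 in Thrb-KO, and both were catalytic subunits of the immunoproteasome, which replaces the standard proteasome under interferon. Psmb10 was at 6.85, 5.33, 6.08 and 7.00 CPM in hypothyroid and 11.2, 10.4, 21.00 and 13.6 CPM in hyperthyroid wild type (log2 fold change 1.00 ± 0.17 SE, adjusted p = 0.00022). In Thrb-KO it was at 7.48, 7.20, 6.37, 5.98 and 5.12 CPM in hypothyroid and 7.85, 8.77, 10.6, 8.14 and 8.72 CPM in hyperthyroid samples, also without overlap but not past the test (log2 fold change 0.40 ± 0.15 SE, adjusted p = 0.3). Psmb8 was at 11.7, 10.00, 11.4 and 11.1 CPM in hypothyroid and 16.1, 13.7, 22.1 and 18.6 CPM in hyperthyroid wild type (log2 fold change 0.61 ± 0.12 SE, adjusted p = 0.0014), and at 11.00, 12.7, 9.99, 11.1 and 9.59 CPM in hypothyroid and 12.3, 13.5, 15.9, 15.7 and 14.7 CPM in hyperthyroid Thrb-KO. The wild-type groups of both subunits were separate, and the third subunit, Psmb9, had hyperthyroid replicate 2 within the hypothyroid range and was not called (log2 fold change 0.52 ± 0.18 SE, adjusted p = 0.058). Replicate 3 was the highest hyperthyroid library for all 3 genes. The call of Psmb8 was lost under 5 of 31 alternatives, among them those without hyperthyroid replicate 3, without hyperthyroid replicate 4 and without hypothyroid replicate 2 of wild type.

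The peptide transporter, its tapasin adaptor and the class I molecules were not called. Log2 fold changes with T3 in wild type were 0.12 ± 0.14 SE for Tap1 and -0.01 ± 0.10 SE for Tap2, which pair to form the transporter, and 0.04 ± 0.10 SE for Tapbp, the adaptor. They were -0.19 ± 0.10 SE for B2m, the shared light chain, -0.25 ± 0.15 SE for H2-K1 and 0.24 ± 0.15 SE for H2-D1, the heavy chains. B2m ranged from 230.4 to 265 CPM in hypothyroid and from 195 to 284 CPM in hyperthyroid wild type, and H2-K1 from 142 to 215 CPM (hypothyroid) and from 130.3 to 205 CPM (hyperthyroid). Heavy chains have near-identical paralogs, and reads assigned to H2-K1 and H2-D1 are uncertain for this reason.

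Class II members were not called with T3 in either genotype. In wild type, Ciita, the master regulator, had a log2 fold change of 0.11 ± 0.18 SE and Cd74 of -0.36 ± 0.19 SE. Cd74 differed between genotypes, with 116, 105, 146 and 174 CPM in hypothyroid wild type against 77.7, 73.8, 76.2, 78.3 and 84.2 CPM in hypothyroid Thrb-KO, groups that did not overlap (log2 fold change -0.76 ± 0.18 SE, adjusted p = 0.012). In hyperthyroid samples Cd74 was at 78.4, 98.8, 91.7 and 158 CPM in wild type and 70.2, 60.4, 97.01, 79.02 and 77.8 CPM in Thrb-KO, with overlap. Cd74 and Mx2 were the 2 calls in that comparison, 1 lower and 1 higher, where 2.01% of all genes were lower and 1.01% higher. Groups were separate for 4 members higher in Thrb-KO (7.6% of all genes) and 3 lower (6.7%). Within library sets, 0 members were called in replicates 1 and 2 (0.905% of all genes higher and 2.13% lower), and 4 in the later replicates (2.22% and 2.56%). The call of Cd74 was lost without hypothyroid wild type replicate 4 (log2 fold change -0.63, adjusted p = 0.060). Summed macrophage markers were 143 to 168 CPM in hypothyroid wild type and 81.6 to 97.8 CPM in hypothyroid Thrb-KO, and 8 of 9 tested markers, among them Csf1r, C1qa and Cx3cr1, were called lower. Their part in the Cd74 difference was not tested.

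Among hyperthyroid samples, 4 of 42 members were lower in Thrb-KO than in wild type (2.32% of all genes) and 0 were higher (2.54%). Groups were separate for 4 members lower, Gbp2, Gbp3, Gbp9 and Isg15 (3.69% of all genes), and 0 higher (7.61%), and by adjusted p alone 7 were lower (4.3%). The 4 called members were Gbp3 (log2 fold change -1.29 ± 0.23 SE, adjusted p = 0.00094), Gbp9 (log2 fold change -1.42 ± 0.18 SE, adjusted p = 3.45e-05), Gbp5 (log2 fold change -0.69 ± 0.17 SE, adjusted p = 0.009) and Isg15 (log2 fold change -0.66 ± 0.17 SE, adjusted p = 0.012). Gbp3 and Gbp9 were also called without replicate 4, and Gbp5 and Isg15 were not. Isg15 was also not called without replicate 3. The hyperthyroid wild-type libraries serve both in this comparison and in the T3 comparison of wild type, so the results are not independent of each other.

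Of 71 other genes of interferon signalling and antigen presentation, 69 were in the table and 58 were tested. With T3 in wild type, 4 of 58 were called higher and 3 lower, where 3.87% and 5.59% of all genes were, with a median log2 fold change of 0.12. Those called higher were Jak2, the kinase of the interferon gamma and growth hormone receptors (log2 fold change 1.02 ± 0.11 SE, adjusted p = 2.15e-06), Cmpk2, a mitochondrial nucleotide kinase encoded beside Rsad2 (0.92 ± 0.14 SE), Erap1, the peptidase that trims class I peptides (0.77 ± 0.12 SE), and Xaf1 (0.71 ± 0.11 SE). Calr (-0.79 ± 0.21 SE) and Pdia3 (-0.63 ± 0.09 SE), chaperones of the endoplasmic reticulum that serve class I assembly among many other proteins, and Socs1, an inhibitor of Jak kinases (-0.65 ± 0.11 SE), fell. These wild-type calls were lost under 7 of 31 alternatives for Pdia3, 3 for Socs1 and 1 for Calr. For Jak2, Cmpk2, Erap1 and Xaf1 they were lost under 0. Mean levels in hypothyroid and hyperthyroid wild type were 46.4 and 97.0 CPM for Jak2, 15.2 and 30.3 CPM for Cmpk2, 55.3 and 96.5 CPM for Erap1, and 5.02 and 2.83 CPM for Socs1. In Thrb-KO, 0 of 58 were called with T3, where 0.411% of all genes were higher and 0.601% lower. The interaction was called for Jak2, Cmpk2, Erap1 and Xaf1, which were less responsive in Thrb-KO (1.78% of all genes were lower). It was also called, with a positive difference, for Socs1 (2.48% of all genes were higher). The interaction call was lost under 14 of 30 alternatives for Erap1, 13 for Xaf1, 11 for Socs1, 1 for Cmpk2 and 0 for Jak2. The receptors of both interferon types were not called.

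Class II partners of Cd74 differed between genotypes in the same direction as it did. In hypothyroid samples, H2-Aa, H2-Ab1, H2-Eb1 and the lysosomal protease Ctss were lower in Thrb-KO, with log2 fold changes between -0.95 and -0.73, along with Socs1 (-1.02), and 0 of 58 were higher (2.01% of all genes were lower and 1.01% higher). The call of H2-Aa was lost under 7 of 31 alternatives. In hyperthyroid samples, Jak2, Ifitm3, Bst2, H2-Ab1 and Ctss were lower in Thrb-KO, with log2 fold changes between -1.03 and -0.62 (2.32% of all genes were lower). Calls were lost under 13 of 31 alternatives for H2-Ab1, 5 for Ifitm3, 4 for Bst2, 2 for Ctss and 0 for Jak2. Without hyperthyroid wild type replicate 4, log2 fold changes were -0.47 for H2-Ab1, -0.58 for Ifitm3 and -0.54 for Bst2, and these were not called. In these samples summed macrophage markers were 104 to 179 CPM in wild type and 83.9 to 108 CPM in Thrb-KO. As above, the part of the macrophages was not tested.

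TRβ-binding sites were located by chromatin affinity purification and sequencing (ChAP-seq) of a biotinylated receptor, TRβ-HAB, in untreated HAB;BirA mice against BirA controls that lack the tag. The peak lists give 8051 sites in pituitary and 5164 in cerebral cortex, and a further list gives 1776 sites of T3-regulated open chromatin (ATAC-seq) in nuclei of pituitary cells marked by a Thrb-driven Cre, without the direction of the change. Of the 43 members, 13 had a pituitary TRβ-HAB peak within 20 kb of the gene, against 41.3% of all genes tested, 12 had a cortex peak (34.9%), and 2 had an ATAC peak (7.79%). Of the 18 members called higher with T3 in wild type, 6 were near a pituitary TRβ-HAB peak (Gbp3, Gbp7, Irf1, Ifi35, Rsad2 and Mx2), whereas 74% of all genes called higher were. Likewise 2 of the 18 (Gbp3 and Gbp7, which share a peak) were near an ATAC peak, against 32.7% of all genes called higher. Distances were measured from the gene body, and the 18 members have a median span of 14.5 kb against 32.1 kb for all genes called higher. No test was made of these shares.

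Among the peaks near members, a single site was in all 3 lists and lies at the start of Gbp3 on chromosome 3. In mm9 coordinates, the pituitary peak spans chr3:142222651-142223100 (34 HAB;BirA reads against 4 in controls), the cortex peak chr3:142222751-142223250 (11 against 0) and the ATAC peak chr3:142222693-142223072. All 3 cover the annotated start of Gbp3 on the plus strand. Gbp7 lies upstream and is the other member within 20 kb. The best match in the peak to a direct repeat of AGGTCA with a 4 base spacer (DR4), the classical element of thyroid hormone receptors, was on the plus strand at chr3:142222944-142222959 and held 9 of the 12 bases, with both copies in capitals.

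Gbp3 repeat: GGTTCAtgtcAGGACA

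**Figure D5:**
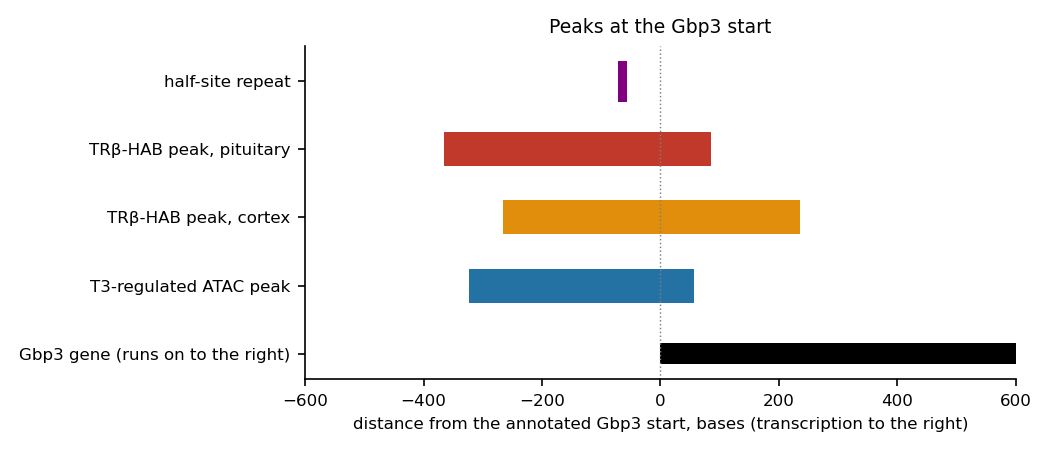
Peaks at the annotated start of Gbp3, by distance in bases from the start (0, dotted line, transcription to the right). The pituitary TRβ-HAB peak, the cortex TRβ-HAB peak and the T3-regulated ATAC peak all cover the start. A partial match to the DR4 repeat lies just upstream of it.

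The same repeat is found in a RefSeq promoter of Gbp3, shown for the order of the elements. A second RefSeq promoter of Gbp3, at chr3:142560106-142560405 of GRCm38.p6, held 0 ISRE and 0 GAS. The promoter with the repeat is printed from the plus strand of GRCm38.p6, chr3:142559794-142560043, as the 250 bases before the start, with ISRE letters in capitals.

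Gbp3: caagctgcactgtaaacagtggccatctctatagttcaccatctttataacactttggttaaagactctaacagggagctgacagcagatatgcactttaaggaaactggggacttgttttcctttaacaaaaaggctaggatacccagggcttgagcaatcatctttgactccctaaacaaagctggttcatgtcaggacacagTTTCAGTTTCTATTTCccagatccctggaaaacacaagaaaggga

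The repeat occupies positions -64 to -49 from this start (-1 being the last base before it) and 2 overlapping ISRE matches (GAAA, any 2 bases, GAAA, found on the minus strand) occupy -45 to -30, with 3 bases between. A repeat with at least 9 matching bases is common, present in 21.9% of all 32851 RefSeq promoter windows (250 bases before to 50 after a start), and one with at least 10 in 3.02%. Of the 38 windows of members, 15 (39.5%) held one with at least 9 and 4 (10.5%) one with at least 10. These shares were not tested. A match describes the letters and does not show that the receptor or the interferon factors bind there.

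Among pituitary peaks near members, the one with the most HAB;BirA reads was centred at -3116 bases from the Irf1 start, in intergenic sequence at chr11:53580301-53580500 of mm9, with 49 HAB;BirA reads against 0. Its 200 bases are printed from the plus strand, with the best repeat (9 of 12 bases, chr11:53580381-53580396) in capitals.

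Irf1 upstream peak: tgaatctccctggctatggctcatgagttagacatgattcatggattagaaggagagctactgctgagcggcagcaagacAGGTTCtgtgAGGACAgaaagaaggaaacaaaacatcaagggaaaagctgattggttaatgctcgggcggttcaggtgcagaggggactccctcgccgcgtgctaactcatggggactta

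The cortex list had another peak at -5566 bases from Irf1 (9 reads against 0) and none at this site. Ifi35 had a pituitary peak in its intron at chr11:101312601-101313250 (26 reads against 4). Among the peaks near members, this peak holds the closest repeat, 10 of 12 bases at chr11:101312990-101313005 on the plus strand.

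Ifi35 repeat: AGGTCAgaagAGGGTA

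Further pituitary peaks lay at -790 bases from Mx2 (14 reads against 2), at -279 bases from Stat2 (9 against 0), 467 bases inside Irf9 (11 against 1) and 212 bases inside Ifih1 (14 against 0). The site counted for Rsad2 lies in coding sequence of its neighbour Cmpk2, which was also called higher with T3. Of the 24 tested members not called higher, 7 were near a pituitary peak, namely Irf7, Irf9, Stat2, Ifih1, Tapbp, H2-K1 and Ciita. Irgm2 had a peak over its start in cortex only, chr11:58028401-58028950 (12 reads against 1), and Gbp9, the member with the second largest rise, had no peak of any list within 20 kb. A repeat with at most 2 mismatches was found in 20.9% of pituitary peaks, 9.3% of cortex peaks and 30.9% of ATAC peaks.

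Interferon elements were common in the promoters of the members. RefSeq promoter windows were found for 32 of the 43 members (38 windows). The ISRE letters, taken as GAAA, any 2 bases and GAAA on either strand, were in 39.5% of these windows and 3.44% of all windows, and the GAS letters, TTC, any 3 bases and GAA, which read the same on both strands, in 26.3% and 8.3%. The exact DR4, AGGTCA repeated after any 4 bases on either strand, was in 0 of the 38 windows and 0.0152% of all windows. The ISRE was present in 8 of 13 members called higher with T3 (Gbp2, Gbp3, Gbp5, Gbp7, Ifit3, Irgm2, Isg15 and Rsad2) and in 7 of 19 of the others (B2m, Ifih1, Ifit1, Igtp, Irf2, Irgm1 and Stat2). Members were listed here as interferon-response genes, so these shares describe the list and were not tested.

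The promoters of Gbp7, Irf1 and Isg15 are shown as examples with both elements, GAS only and ISRE only, 250 bases before the start on the strand of the gene, with ISRE and GAS letters in capitals. They lie at chr3:142530086-142530335 (Gbp7, plus strand), chr11:53769764-53770013 (Irf1, plus strand) and chr4:156200819-156201068 (Isg15, minus strand) of GRCm38.p6.

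Gbp7: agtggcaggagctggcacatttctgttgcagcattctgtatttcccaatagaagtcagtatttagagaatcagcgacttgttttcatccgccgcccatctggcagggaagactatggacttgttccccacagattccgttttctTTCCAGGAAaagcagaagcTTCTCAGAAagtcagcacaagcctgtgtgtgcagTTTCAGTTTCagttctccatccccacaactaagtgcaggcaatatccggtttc

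Irf1: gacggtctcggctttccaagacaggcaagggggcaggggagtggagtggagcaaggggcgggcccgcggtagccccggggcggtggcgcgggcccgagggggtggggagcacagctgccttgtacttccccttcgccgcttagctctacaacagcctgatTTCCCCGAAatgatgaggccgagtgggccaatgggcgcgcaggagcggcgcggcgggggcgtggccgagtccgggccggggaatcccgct

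Isg15: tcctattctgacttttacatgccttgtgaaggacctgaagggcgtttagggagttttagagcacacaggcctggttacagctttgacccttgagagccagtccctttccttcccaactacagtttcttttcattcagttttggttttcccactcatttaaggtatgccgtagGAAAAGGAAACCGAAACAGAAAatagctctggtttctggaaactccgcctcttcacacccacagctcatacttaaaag

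Gbp7 held 1 ISRE and 2 GAS, Irf1 1 GAS and Isg15 3 overlapping ISRE. A second RefSeq promoter of Irf1, at chr11:53770223-53770522, held 0 ISRE and 0 GAS. All 3 genes were called higher with T3 in wild type and none in Thrb-KO, and Isg15 had no peak of any list within 20 kb.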

How the data were processed

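The 43 members and the gene lists were chosen with earlier results of these data known. RNA was oligo(dT)-selected from pools of 3 pituitaries, and the authors aligned single-end reads to RefSeq transcripts of mm9 with BBMap and deposited CPM for 18 libraries. Whole reads were recovered for 100% of values (tolerance 0.05). For each gene the transcript with the highest mean was kept. Log2(CPM + 1) of genes above 1 CPM in all 18 libraries was fitted with limma 3.58.1 (trend) over the 4 groups, with Benjamini-Hochberg adjustment over 13145 genes, and a call also required 1.5-fold. Fold changes are on this scale, which understates changes of low genes. The alternatives used edgeR 4.0.16 (quasi-likelihood) and DESeq2 1.42.0 on the recovered reads, other filters, scalings and pseudocounts, and single libraries left out. The procedure was tested on simulated data with the same spread for all genes, no library sets and no outlying library. That test therefore does not address the dependence on single libraries or on library sets. Deviations of same-numbered libraries from their group means correlated at 0.255 to 0.815, but the same number was often not the best match. Hypothyroid wild type replicate 3 correlated best with hyperthyroid replicate 4, and replicate 4 with replicate 3. Pairing by replicate number was therefore not established, and blocked values are given as an alternative where a call changes. Separate pools are treated as replicates, and p-values measure the spread between pools.

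The deposited TRβ-HAB peak lists hold read counts of merged HAB;BirA and merged BirA libraries, their ratio (fold), p-values and false discovery rates, made by the authors with SICER 1.1 (version from the submitters' processing notes). The deposited ATAC list holds adjusted p-values with no direction. Replicates were pooled before deposit, so peaks have no replicate error. Peaks were assigned to genes within 20 kb in mm9, and promoters were read from RefSeq for GRCm38.p6. Values in every library are given for members called in any comparison or with separate wild-type groups, others by range or change, and of the other pathway genes the called ones are named. A gene of that list is not reported here.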

Additional observations from a re-analysis of the deposited data

Results flagged for a closer look

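Single libraries stood far from the others of their group for 24 of the 172 sets of 4 or 5 libraries examined (Dixon's test at the 95% level, which flags a small share of groups by chance alone). Only members were examined, and the share over all genes was not counted. Hyperthyroid wild type replicate 4 was the highest of its group in 7 of these, for Irf7 (14.2 CPM against 4.93 to 5.47 CPM in the rest of the group), Irf9 (47.9 CPM against 28.3 to 29.1 CPM in the rest of the group), Ifit3 (14.1 CPM against 6.07 to 6.98 CPM in the rest of the group), Usp18 (12.4 CPM against 6.08 to 6.95 CPM in the rest of the group), Oasl2 (103 CPM against 56.6 to 64.0 CPM in the rest of the group), Mx2 (4.95 CPM against 2.72 to 3.02 CPM in the rest of the group) and Tap1 (17.0 CPM against 9.73 to 10.6 CPM in the rest of the group). Hypothyroid Thrb-KO replicate 4 was the highest in 8, for Gbp4 (7.82 CPM against 5.14 to 5.60 CPM in the rest of the group), Ifit1 (29.8 CPM against 8.63 to 9.41 CPM in the rest of the group), Ifit3 (10.4 CPM against 3.82 to 4.88 CPM in the rest of the group), Usp18 (8.05 CPM against 4.89 to 5.53 CPM in the rest of the group), Rsad2 (22.5 CPM against 8.21 to 11.7 CPM in the rest of the group), Oasl2 (58.4 CPM against 50.8 to 52.5 CPM in the rest of the group), Mx1 (4.27 CPM against 0.444 to 0.76 CPM in the rest of the group) and Mx2 (4.50 CPM against 2.29 to 2.88 CPM in the rest of the group). Hyperthyroid Thrb-KO replicate 2 was apart for Gbp2 (lowest, 13.2 CPM against 15.8 to 16.6 CPM) and Ifit1 (lowest, 8.13 CPM against 11.7 to 12.9 CPM). Hyperthyroid Thrb-KO replicate 1 was apart for Gbp5 (highest, 6.52 CPM against 5.10 to 5.50 CPM) and Irgm2 (highest, 26.6 CPM against 23.9 to 24.3 CPM). Hypothyroid wild type replicate 2 was apart for Irf8 (lowest, 4.99 CPM against 5.44 to 5.46 CPM). Hyperthyroid Thrb-KO replicate 3 was apart for Irf8 (highest, 4.43 CPM against 3.40 to 3.56 CPM). Hypothyroid wild type replicate 4 was apart for Ifit3 (lowest, 2.83 CPM against 3.91 to 3.97 CPM). Hypothyroid wild type replicate 3 was apart for Usp18 (highest, 5.79 CPM against 4.50 to 4.68 CPM) and Oasl2 (highest, 49.2 CPM against 39.8 to 41.2 CPM).

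The T3 response differed between genotypes by the interaction term of limma for 5 members, each smaller in Thrb-KO. The differences of the log2 fold changes were -0.76 for Gbp2, -1.64 for Gbp3, -0.83 for Gbp7, -1.66 for Gbp9 and -0.83 for Mx2. Those of Gbp3 and Gbp9 were called under each of 30 alternatives.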

How the results depend on the processing

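No result changed direction while called. With T3 in wild type, 18 members were called, and the count with single libraries left out was 11 to 23, lowest without hyperthyroid wild type replicate 4. In Thrb-KO the count was 1, Gbp3, under every alternative run. The interaction (5 members, 1.78% of all genes lower) was called for 2 with no filter (1.42%), 8 with edgeR (2.45%), 13 with DESeq2 (2.92%) and 9 with TMM scaling (2.46%). It was called for 8 with the replicate block (2.54%) and 11 with the library set as a covariate (2.63%). In replicates 1 and 2 it was called for 10 (3.15%), and in the later replicates for 3 (1.34%). Without hyperthyroid wild type replicates 3 and 4, an alternative chosen after seeing the data, it was called for 8 (share of all genes not counted). With single libraries left out the count was 2 to 13. Between genotypes in hypothyroid samples (2 members) the count was 4 with DESeq2 (1.23% of all genes higher and 3.18% lower). It was 1 with TMM scaling (0.943% and 2.07%), the replicate block (1.38% and 2.36%) or the library set (1.35% and 2.3%). In replicates 1 and 2 it was 0 (0.905% and 2.13%), and in the later replicates 4 (2.22% and 2.56%). With single libraries left out it was 0 to 3. In hyperthyroid samples (4 members, all lower) the count was 8 with edgeR (3.83% of all genes lower), 10 with DESeq2 (4.49%) and 7 with no fold limit (4.3%). With single libraries left out it was 2 to 8. With T3 in wild type the replicate block also called Irf7 and Ifit1 (20 members), and it changed no member's call in Thrb-KO or between genotypes in hyperthyroid samples. Members near a pituitary peak (13 within 20 kb) numbered 28 within 100 kb (70.8% of all genes tested) and 8 at a stricter peak threshold (27.8%). For cortex peaks (12) the numbers were 3 within 5 kb (25.7%), 27 within 100 kb (62.9%) and 5 at the stricter threshold (16.9%). For ATAC peaks (2) they were 1 within 5 kb (5.63%) and 7 within 100 kb (18.2%). The causes were not tested. Mx1 was too low to be tested with the main filter.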
